A study of Mus musculus with 6 samples.

Results

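The 31 genes described here serve protein folding and the stress response of the endoplasmic reticulum (ER), and were taken by gene name from a table of 25700 genes in which all 31 were found. They fall into 14 chaperones and foldases, 8 genes of ER-associated degradation and the translocon, 4 genes for the stress sensors and the factor XBP1, and 5 genes downstream of the sensor PERK and the factor ATF4. RNA was sequenced from the proximal incisor of 6 C57BL/6 mice aged 5 weeks. The 3 control mice carried floxed Runx2 alleles without Cre (Runx2fl/fl), and the 3 conditional knockout mice, called cKO, carried the same alleles with Gli1-CreERT2 (Gli1-CreERT2;Runx2fl/fl). The same tamoxifen protocol is given for both groups, 1.5 mg per 10 g body weight on 3 days at 1 month of age, with tissue taken a week after induction. CreERT2 driven by Gli1 acts in cells that express Gli1, whose descendants keep the deletion, so the sample also holds RNA of cells with an intact Runx2 gene. Controls had no Cre, so loss of Runx2 and the presence or activation of the Cre allele cannot be told apart.

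Secreted and membrane proteins enter the ER, where chaperones such as BiP fold them, disulfide isomerases form their bonds, and misfolded chains are pulled back into the cytosol and degraded. Overload activates 3 sensors. ATF6 and IRE1, the latter through splicing of Xbp1 RNA, raise chaperone and degradation genes, whereas PERK slows translation and raises ATF4 and its targets. Cells that secrete the matrices of enamel, dentin and bone have a large ER. Gene counts do not show Xbp1 splicing, cleavage of ATF6 or phosphorylation of PERK, so only RNA levels are described.

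The promoters of some of these genes carry a known control element, the ER stress response element (ERSE), in which CCAAT is followed by CCACG after a spacer of 9 bases. It is shown because the comparison below separates genes of the ATF6 and XBP1 type from those of the PERK/ATF4 type. Control by ATF6 or XBP1 was not measured. RefSeq promoter windows of 300 bases (250 before and 50 after the start site, build GRCm38.p6) were found for 27 members, and exact matches on either strand were counted. The ERSE stood in the windows of 9 members, against 0.119% of 32851 windows in all. Of these 9, 7 were among the 12 chaperones with a window and 2 among the 7 degradation genes with one. None of the 3 sensor genes or 5 PERK/ATF4-type genes with a window had an exact match. The matches, each read 5′ to 3′ on its own strand with the 2 fixed boxes in capitals, were:
Hspa5, chr2:34772025-34772043, plus strand: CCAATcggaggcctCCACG
Hsp90b1, chr10:86705533-86705551, plus strand: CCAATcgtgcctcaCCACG
Hsp90b1, chr10:86705638-86705656, minus strand: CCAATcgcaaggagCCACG
Calr, chr8:84847075-84847093, plus strand: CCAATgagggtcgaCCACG
Canx, chr11:50325800-50325818, minus strand: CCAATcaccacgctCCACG
Pdia6, chr12:17266491-17266509, plus strand: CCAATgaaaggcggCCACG
Dnajc3, chr14:118937827-118937845, plus strand: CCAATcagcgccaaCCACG
Creld2, chr15:88819520-88819538, minus strand: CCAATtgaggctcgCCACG
Syvn1, chr19:6046532-6046550, plus strand: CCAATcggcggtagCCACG
Derl3, chr10:75893242-75893260, minus strand: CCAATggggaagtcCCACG

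In Hspa5, which encodes BiP, the element ended 46 bases before the start site. Its place in the promoter is shown here in the 150 bases before the start site (chr2:34771940-34772089, plus strand), with the same boxes in capitals.
Hspa5: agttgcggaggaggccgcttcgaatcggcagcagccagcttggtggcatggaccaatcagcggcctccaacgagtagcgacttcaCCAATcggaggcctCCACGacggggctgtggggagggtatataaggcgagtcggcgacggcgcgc
A second known element, ERSE-II (ATTGG and CCACG with 1 base between), stood in the windows of 2 members, Herpud1 and Dnajb11, against 0.0365% of all windows. It is shown because Herpud1 was the 1 gene of its group with a higher fitted level in cKO mice, although its values overlapped between control and cKO mice. Dnajb11, with the same element, had a lower fitted level. Whether the element bears on either level was not tested.
Herpud1, chr8:94386377-94386387, plus strand: ATTGGgCCACG
Dnajb11, chr16:22857852-22857862, plus strand: ATTGGcCCACG
The core bound by ATF4 together with C/EBP factors was searched as TGATGNAAN and stood in the windows of 4 members, against 3.95% of all windows. They were Herpud1 and 3 of the 5 PERK/ATF4-type genes, Asns, Chac1 and Trib3.
Asns, chr6:7693224-7693232, minus strand: TGATGaAAc
Chac1, chr2:119351048-119351056, minus strand: TGATGcAAc
Herpud1, chr8:94386316-94386324, minus strand: TGATGcAAc
Trib3, chr2:152344039-152344047, plus strand: TGATGtAAa
Herpud1 was the 1 member whose window matched both an ERSE-II and this core. The XBP1-binding core TGACGTGG was in none of the 27 windows and in 0.676% of all windows. The box CCACG alone, which overlaps ERSE and ERSE-II, was in the windows of 22 members and in 32.8% of all windows. A match describes letters in a window and is not a measurement of binding.

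Libraries held 53525185 to 66694240 estimated counts, so 1 count was worth 0.0149 to 0.0186 CPM, the count unit scaled to the library total. Library sizes were scaled by the TMM method. Runx2, the targeted gene, measured 79.7, 77.7 and 81.2 CPM in controls 1 to 3 and 62.6, 54.0 and 49.0 CPM in cKO 1 to 3 (log2 fold change -0.53, SE 0.089, adjusted p = 0.0714 by edgeR). The labels call the tissue dental mesenchyme, and all 11 mesenchymal markers looked for were found, with summed levels of 906 to 1066 CPM in controls against 1036 to 1216 in cKO mice. RNA of enamel-forming epithelium was present too, and the 4 secretory ameloblast markers summed to 60042 to 79541 CPM in controls against 22163 to 46682 in cKO mice. The sums add unlike genes, so they do not show how much RNA each tissue gave. Maturation-stage ameloblast genes were high in control 2 (1798 CPM) and in all cKO mice (1112 to 2634 CPM), against 112 and 98.1 CPM in controls 1 and 3. Skeletal muscle genes were high in control 1 alone (230 CPM, against 12.4 to 16.3 CPM in the other mice). Control 1 alone lacked Xist (0.596 CPM against 2865 to 3390 CPM). It alone had the Y-linked Ddx3y (75.6 CPM against at most 0.0150 CPM). By these genes control 1 read as male and the other mice as female, and sex was not part of the fit. In such a mixed sample, fewer cells of a type and less RNA per cell cannot be told apart.

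Folding genes were highly expressed. Per kilobase of exonic sequence, the highest member levels in controls were those of Calr (392 CPM per kilobase), Pdia3 (301), Hsp90b1 (291) and Hspa5 (256). The lowest were those of Derl3 (0.892), Chac1 (0.722) and Trib3 (0.397). The 31 genes together took 0.747%, 0.775% and 0.843% of all counts in controls 1 to 3 and 0.712%, 0.638% and 0.666% in cKO 1 to 3. Every cKO share was below every control share, and most of the total came from the 14 chaperones.

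No member passed the threshold in the comparison of cKO with control (edgeR quasi-likelihood F-test, Benjamini-Hochberg adjusted p under 0.05), in which 0.0260% of the 19264 tested genes were called, 0.0208% higher and 0.00519% lower. All 14 chaperones, 7 of 8 degradation genes and all 4 sensor genes had a lower fitted level in cKO mice, whereas 4 of 5 PERK/ATF4-type genes had a higher one. Of the 19264 tested genes, 9628 had a lower fitted level. The median log2 fold change was -0.28 for chaperones, -0.10 for degradation genes, -0.24 for sensors and 0.067 for PERK/ATF4-type genes, against 4.8e-05 over all tested genes. These medians carry no test, and the difference between the groups of members was not tested. At an unadjusted edgeR p under 0.05, 15 members were lower and 0 higher, against 8.55% and 8.71% of all tested genes. Without control 3 the count of 15 lower members fell to 6 (5.73% of all tested genes lower at that setting). It fell to 5 without cKO 2 (6.40%) and to 6 without cKO 3 (5.55%). It was 15 without control 1 (7.50%), 14 without control 2 (8.15%), 18 without cKO 1 (8.19%) and 17 by DESeq2 (8.43%). With maturation ameloblast genes as a covariate it was 3 (2.94%). Those genes were high in every cKO mouse and, among controls, in control 2 only, so the covariate is hard to separate from genotype. With it the SE of Hspa5 rose from 0.14 to 0.22, and the chaperone median was -0.24. The fitted values of Calr, Canx, Pdia3 and Pdia6 were then more negative (for Calr -0.26 in place of -0.18). Those of the other chaperones were less negative (Hspa5 -0.21 in place of -0.34, Sdf2l1 -0.33 in place of -0.66). Higher at an unadjusted p under 0.05 were Herpud1 and Chac1 without cKO 2 (7.31% of all tested genes) and Chac1 with the covariate (3.28%). By DESeq2, Chac1 was also higher at an unadjusted p under 0.05 (8.90% of all tested genes). DESeq2 on the same counts called 6 members lower and 0 higher (Ern1, Pdia6, Pdia3, Hsp90b1, Sdf2l1 and Manf), against 7.48% of its tested genes called in all, 3.55% lower and 3.93% higher. For 17 members every cKO mouse lay below every control, a pattern found in 12.0% of tested genes, and for 1 member, Trib3, every cKO mouse lay above every control, as in 11.1%. The 17 include Xbp1 and Asns, whose nearest control and cKO values were equal after rounding. Leaving out 1 mouse at a time, 17 to 23 members had all cKO mice below all controls, against at most 19.0% of tested genes. Leaving a mouse out can only keep or raise this count, so the range is no check of the 17.

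**Figure D1:**
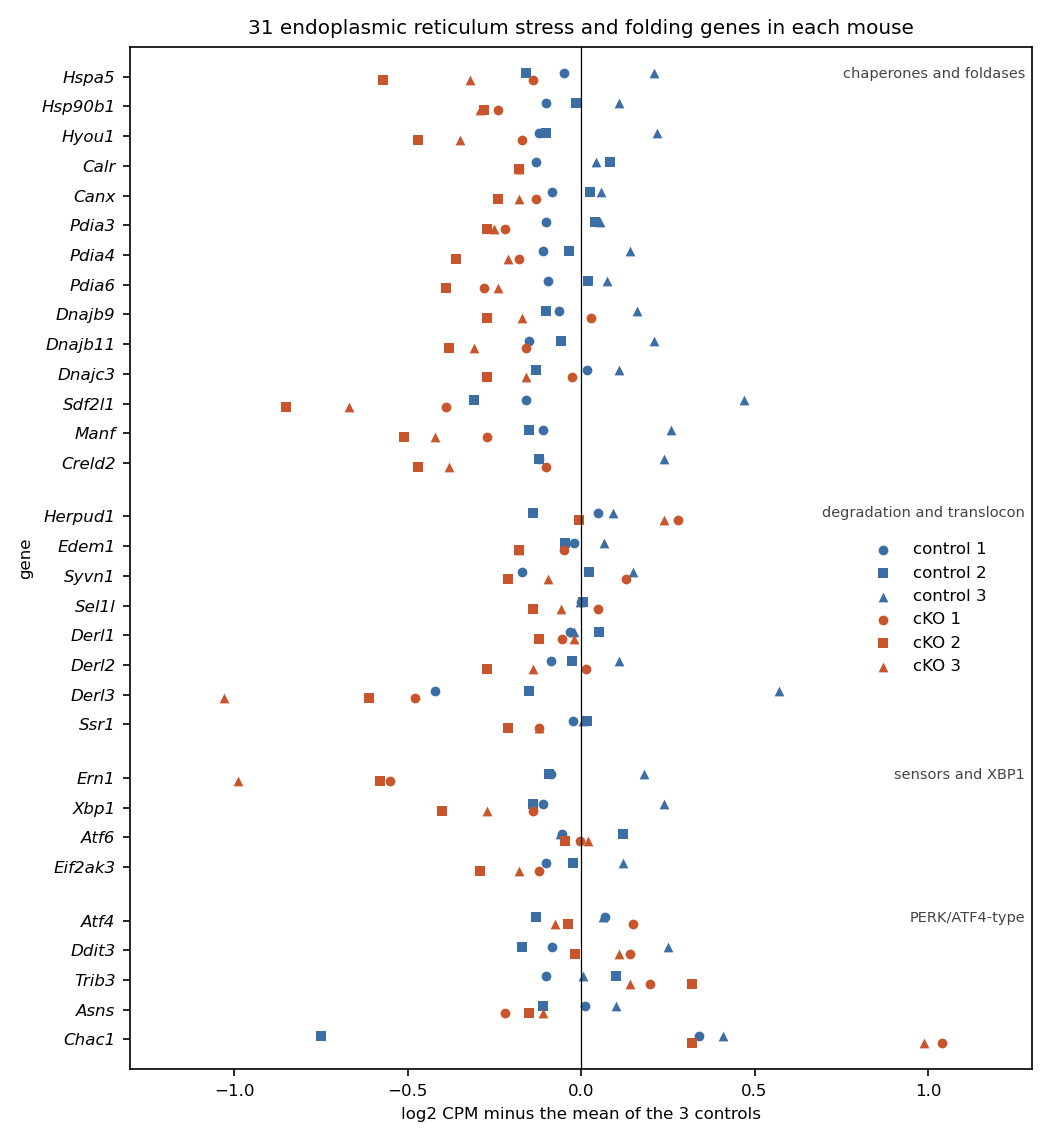
Each point is 1 mouse, placed by its log2 CPM minus the mean of the 3 controls (x axis) for each of the 31 genes (y axis). Blue points are controls, orange points cKO mice, and the shape gives the mouse number. The orange points of the chaperones lie mostly left of the blue ones, those of Ern1 lie from -0.55 to -0.99, and those of Herpud1, Atf4, Ddit3, Trib3 and Chac1 lie among or right of the blue points.

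The main chaperones had lower levels in cKO mice by modest amounts. Hspa5, the HSP70-type chaperone BiP that also holds the sensors inactive, measured 1039, 966 and 1240 CPM in controls 1 to 3 and 978, 727 and 859 CPM in cKO 1 to 3. Control 3 was high, cKO 2 low, and the groups overlapped, because cKO 1 lay above control 2. The log2 fold change was -0.34 (SE 0.14, adjusted p = 0.280 by edgeR). Hsp90b1, the HSP90-type chaperone GRP94, measured 1093, 1159 and 1266 CPM in controls against 990, 962 and 961 in cKO mice. The 3 cKO values lay close together below all controls (log2 fold change -0.27, SE 0.085, adjusted p = 0.183 by edgeR). In GENCODE M21, 10.3% of the exonic bases of Hsp90b1 overlap the antisense transcript 1810014B01Rik, which had a mean of 12.8 CPM, and whether the counting used strand is not known here. Hyou1, a large HSP70-like chaperone and exchange factor for BiP, measured 195 ± 26.5 CPM in controls against 154 ± 16.5 in cKO mice (SD, n = 3 each), without overlap.

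The lectin chaperones of the glycoprotein cycle were also lower without overlap. Calr, encoding calreticulin, measured 1030, 1194 and 1161 CPM in controls against 996, 994 and 994 in cKO mice. The cKO mice were nearly equal, and the distance to control 1 was small (log2 fold change -0.18, SE 0.086, adjusted p = 0.334 by edgeR). Canx, encoding the membrane-bound calnexin, measured 539 ± 27.2 and 474 ± 17.2 CPM (SD, n = 3 each). Their partner Pdia3, a disulfide isomerase of glycoproteins, measured 883, 971 and 980 CPM in controls against 809, 780 and 791 in cKO mice. All cKO mice were below all controls (log2 fold change -0.25, SE 0.077, adjusted p = 0.177 by edgeR, DESeq2 adjusted p = 0.00989).

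Of the other disulfide isomerases, Pdia6, which also regulates IRE1, measured 457, 495 and 514 CPM in controls against 401, 373 and 414 in cKO mice. The groups were well apart, and Pdia6 had the lowest edgeR p of the chaperones (log2 fold change -0.30, SE 0.077, adjusted p = 0.124; DESeq2 adjusted p = 0.00669). Leaving out 1 mouse at a time moved the log2 fold change of Pdia6 only between -0.34 and -0.25. Pdia4 measured 267 ± 23.8 and 224 ± 14.9 CPM (SD, n = 3 each), again without overlap. Among the J-domain cochaperones of BiP, Dnajb11 was lower without overlap (134 ± 17.6 and 109 ± 8.78 CPM), although cKO 1 at 119 CPM nearly met control 1 at 120 CPM. Dnajb9 (72.9 ± 7.24 and 66.3 ± 7.15 CPM) and Dnajc3, which also inhibits PERK (221 ± 18.6 and 200 ± 16.7 CPM), overlapped between groups (SD, n = 3 each).

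Sdf2l1 and Manf had the largest fitted differences of the chaperone group. Sdf2l1, a partner of the BiP and Dnajb11 complex, measured 25.4, 22.9 and 39.2 CPM in controls against 21.7, 15.8 and 17.9 in cKO mice. Control 3 stood far above the others, and the lowest control was close to the highest cKO mouse. The log2 fold change was -0.66 (SE 0.22, adjusted p = 0.195 by edgeR) and -0.39 without control 3. Manf, a stress-induced factor that binds BiP and is secreted, measured 123, 120 and 160 CPM in controls against 110, 93.4 and 99.2 in cKO mice. It had the same shape, with control 3 high and cKO mice below (log2 fold change -0.41, SE 0.12, adjusted p = 0.161 by edgeR; -0.27 without control 3). Creld2, an ER protein with disulfide isomerase activity, measured 47.5, 47.5 and 61.0 CPM in controls against 48.1, 37.2 and 39.8 in cKO mice, with cKO 1 above 2 controls (log2 fold change -0.32, SE 0.13).

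The mice kept nearly the same order from gene to gene within the chaperones. Control 3 was the highest of all 6 mice for 13 of 14 chaperones and cKO 2 the lowest for 13 of 14. Over all tested genes control 3 was highest for 24.1% and cKO 2 lowest for 12.9%. Within the cKO group, cKO 1 was highest for 13 of 14, as for 36.7% of all tested genes. Averaged over the 14 genes, log2 CPM stood at -0.10, -0.071 and 0.17 from the control mean in controls 1 to 3, and at -0.18, -0.39 and -0.29 in cKO 1 to 3. The cKO mouse nearest the controls, cKO 1, thus lay below the lowest control by less than the range among controls.

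**Figure D2:**
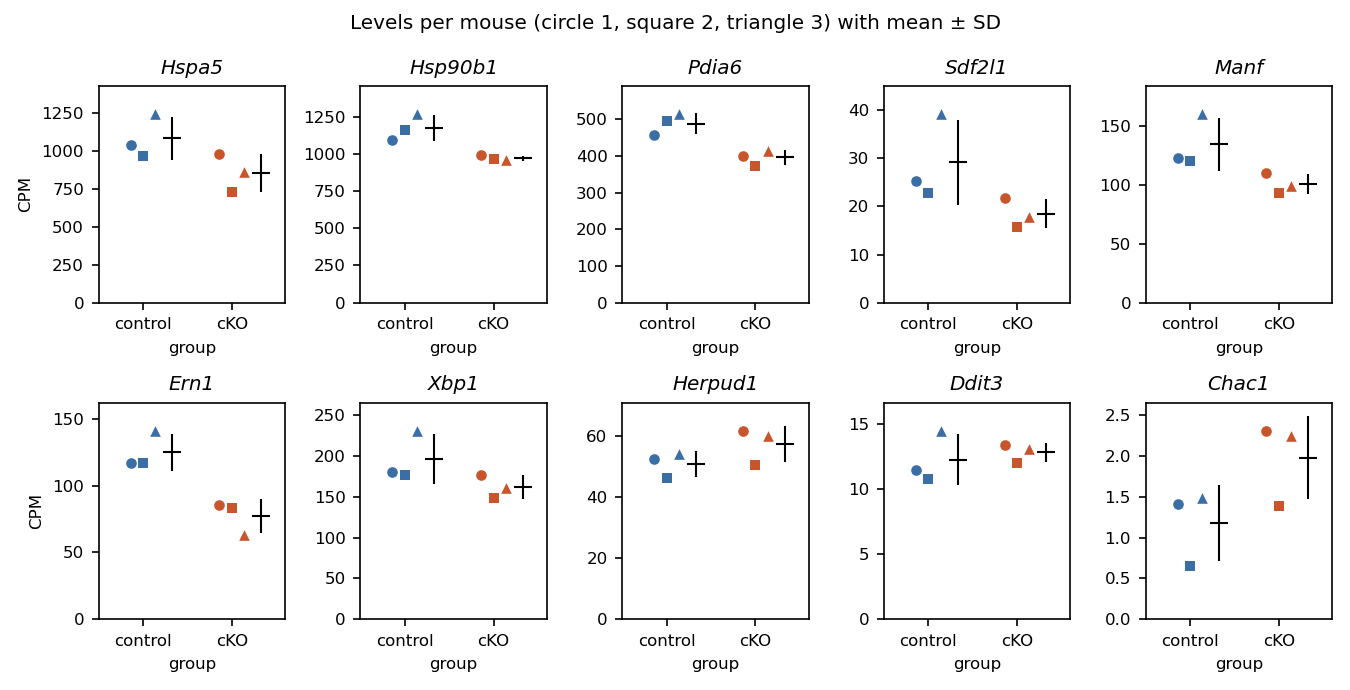
Levels in CPM (y axis, from 0) of 10 genes in control (blue) and cKO mice (orange), with 1 point per mouse and the mean ± SD in black beside each group. Ern1 lies between 62.9 and 85.2 CPM in cKO mice and from 117 CPM upward in controls, whereas the groups overlap for Hspa5, Herpud1, Ddit3 and Chac1.

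Fitted log2 fold changes of the 8 degradation and translocon genes ran from -0.77 for Derl3 to 0.17 for Herpud1. Herpud1, a membrane protein that organizes the degradation complex, was the 1 member of this group with a higher fitted level in cKO mice. It measured 52.6, 46.2 and 54.2 CPM in controls against 61.8, 50.7 and 60.1 in cKO mice. Mice cKO 1 and cKO 3 lay above all controls and cKO 2 lay among them (log2 fold change 0.17, SE 0.10, adjusted p = 0.403 by edgeR). The core of the same complex, the ubiquitin ligase Syvn1 (HRD1) and its partner Sel1l, had overlapping groups. Syvn1 measured 67.6 ± 7.41 and 65.0 ± 7.89 CPM, and Sel1l 171 ± 0.508 and 166 ± 10.8 CPM (SD, n = 3 each). The log2 fold changes were -0.057 (SE 0.11) for Syvn1 and -0.045 (SE 0.061) for Sel1l, and both changed sign when single mice were left out.

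Edem1, which marks mannose-trimmed glycoproteins for degradation, measured 70.3, 69.1 and 74.8 CPM in controls against 69.0, 63.0 and 63.0 in cKO mice. Its groups did not overlap, but cKO 1 and control 2 nearly met. The derlins, membrane proteins of the retrotranslocation channel, differed in level. Derl1 (108 ± 3.45 and 103 ± 3.51 CPM) and Derl2 (49.7 ± 3.60 and 45.4 ± 4.46 CPM) overlapped between groups (SD, n = 3 each). Derl3, typical of highly secretory cells, was scarce, with 68, 102 and 150 counts in controls and 81, 69 and 51 counts in cKO mice. Scaled for depth these were 1.27, 1.53 and 2.53 CPM in controls against 1.21, 1.10 and 0.817 in cKO mice. Control 3 stood apart, and the log2 fold change of -0.77 (SE 0.30, adjusted p = 0.254 by edgeR) was -0.43 without that mouse. Of 8 plasma and B cell markers, Jchain and Mzb1 measured 0.240 to 1.12 CPM and 0.0676 to 0.149 CPM over all mice. Ighm, the most abundant of the 8, measured 9.07 to 16.2 CPM. Which cells gave the Derl3 RNA was not tested. Ssr1, a subunit of the translocon-associated complex that helps chains enter the ER, measured 302, 310 and 308 CPM in controls against 283, 265 and 283 in cKO mice, with tight groups and no overlap (log2 fold change -0.15, SE 0.058, adjusted p = 0.256 by edgeR).

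Among the sensors, Ern1 had the clearest difference of all 31 genes. Ern1 (chromosome 11, 106394650 to 106487852, minus strand, mm10) encodes IRE1 alpha, the kinase and ribonuclease that splices Xbp1 RNA. It measured 117, 117 and 141 CPM in controls against 85.2, 83.4 and 62.9 in cKO mice. The groups did not overlap, cKO 3 was lowest, and the cKO level was 0.617 times that of controls (log2 fold change -0.70, SE 0.13). It did not pass by edgeR (adjusted p = 0.0831) and passed by DESeq2 (adjusted p = 0.000159). With 1 mouse left out at a time the log2 fold change lay between -0.77 and -0.57, and with maturation ameloblast genes as a covariate it was -0.63 (adjusted p = 0.788 by edgeR, the highest over the 11 alternatives).

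The other sensor genes differed less. Xbp1, the substrate of IRE1, measured 181, 177 and 231 CPM in controls against 177, 148 and 161 in cKO mice. Control 3 was high, and cKO 1 and control 2 were both 177 CPM after rounding (log2 fold change -0.28, SE 0.12, adjusted p = 0.294 by edgeR; -0.14 without control 3). Eif2ak3, encoding PERK, measured 57.5, 60.8 and 67.2 CPM in controls against 56.6, 50.5 and 54.5 in cKO mice, lower without overlap (log2 fold change -0.20, SE 0.074, adjusted p = 0.239 by edgeR). Atf6 measured 79.2, 89.1 and 78.8 CPM in controls against 82.0, 79.7 and 83.4 in cKO mice. The Atf6 groups overlapped fully, and its log2 fold change was -0.012 (SE 0.063).

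**Figure D3:**
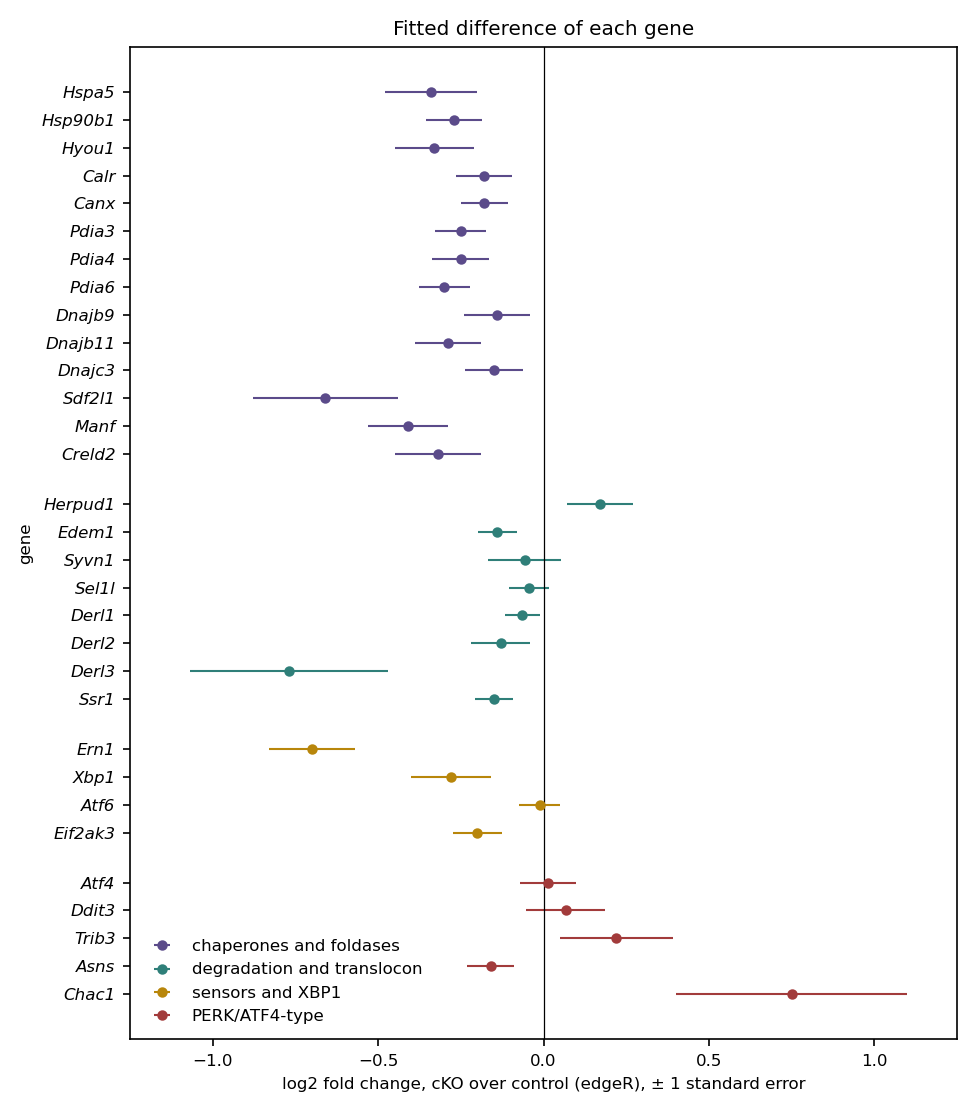
Fitted log2 fold change of cKO over control (x axis, edgeR) with 1 standard error to each side for the 31 genes (y axis), coloured by role. The 14 chaperones lie between -0.66 and -0.14, Ern1 at -0.70 and Derl3 at -0.77, while Herpud1 (0.17), Trib3 (0.22) and Chac1 (0.75) lie to the right of 0.

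Of the PERK/ATF4-type genes, Atf4, Ddit3, Trib3 and Chac1 had fitted values above 0 and Asns below 0. Atf4, the transcription factor whose translation rises when PERK is active, measured 117, 101 and 116 CPM in controls against 124, 108 and 105 in cKO mice (log2 fold change 0.014, SE 0.084). Ddit3, encoding the pro-apoptotic factor CHOP, measured 11.5, 10.8 and 14.5 CPM in controls against 13.4, 12.0 and 13.1 in cKO mice (0.067, SE 0.12). Both overlapped, and Atf4 and Ddit3 changed sign without control 2. Trib3, a pseudokinase induced by CHOP and ATF4, had 42, 60 and 50 counts in controls and 65, 66 and 58 in cKO mice. At 0.782, 0.902 and 0.845 CPM against 0.970, 1.06 and 0.929 CPM every cKO mouse was above every control, with a log2 fold change of 0.22 (SE 0.17, adjusted p = 0.554 by edgeR).

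Chac1, which degrades glutathione and is a target of ATF4, had the largest higher value, from few counts. It had 76, 43 and 88 counts in controls and 155, 87 and 140 in cKO mice, which were 1.41, 0.646 and 1.49 CPM against 2.31, 1.39 and 2.24 CPM. cKO 1 and 3 lay above all controls, cKO 2 lay among them and control 2 was low. The log2 fold change was 0.75 (SE 0.35, adjusted p = 0.328 by edgeR), and without control 2 it was 0.45. With maturation ameloblast genes as a covariate it was 1.59 (adjusted p = 0.788 by edgeR). Asns, the asparagine synthetase that ATF4 induces on amino acid shortage, went the other way, at 30.3, 27.8 and 32.2 CPM in controls against 25.7, 27.1 and 27.8 in cKO mice (log2 fold change -0.16, SE 0.072, adjusted p = 0.306 by edgeR). The highest cKO value and the lowest control value of Asns were both 27.8 CPM after rounding.

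Other genes of the same pathways were read from lists written for this comparison, and none of their members passed by edgeR. DESeq2 called 1 gene lower in each of the translocon, calnexin cycle and heat shock lists, 3 lower in the ER to Golgi list, 4 higher and 3 lower among ATF4 targets, 2 higher among other regulators, and 0 among the other foldases and degradation genes. Over all genes it called 3.55% lower and 3.93% higher. At an unadjusted edgeR p under 0.05 the foldases had 1 lower gene, the degradation genes 3, the ER to Golgi list 4 and the calnexin cycle list 4, while the ATF4 targets had 4 higher and 4 lower, the other regulators 5 higher and 1 lower, and the heat shock genes 1 each way, against 8.55% of all tested genes lower and 8.71% higher. All 16 genes of the translocon and signal peptidase had a lower fitted level in cKO mice, with a median log2 fold change of -0.14, 6 at an unadjusted p under 0.05 (8.55% of all tested genes) and 8 with every cKO mouse below every control (12.0%). The lowest p among them were those of Sec63, a translocon J-domain protein that recruits BiP (195 ± 6.62 and 165 ± 4.24 CPM, adjusted p = 0.102 by edgeR), and the signal peptidase subunit Spcs3 (99.4 ± 8.80 and 81.9 ± 5.53 CPM, adjusted p = 0.156; SD, n = 3 each). Of 13 genes of N-glycan transfer and the calnexin cycle, 11 were below 0 (median -0.13). Clgn, a calnexin homologue, measured 5.05 ± 1.36 and 2.51 ± 0.305 CPM and the oligosaccharyl transferase subunit Ostc 146 ± 4.07 and 131 ± 6.17 CPM (adjusted p = 0.0958 and 0.241 by edgeR; SD, n = 3 each). Of 21 genes of transport from ER to Golgi, 15 were below 0 (median -0.084). Sec16b, an organizer of ER exit sites, measured 18.0 ± 1.47 and 12.8 ± 1.36 CPM, and the cargo receptor Surf4 551 ± 29.5 and 437 ± 27.0 CPM (adjusted p = 0.0931 and 0.110 by edgeR; SD, n = 3 each).

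Other foldases and other degradation genes lay closer to 0. The 12 further foldases had a median of -0.039, with Fkbp2 at -0.27 and Qsox1 at 0.16. The 18 further degradation genes had a median of -0.059, with Selenok at -0.13 and Selenos at -0.24. Cytosolic and mitochondrial heat shock genes, which answer to another regulator, had a median of -0.068, with 13 of 17 below 0. Hspb8 was at -0.53 and the inducible Hspa1a at 0.28.

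The wider set of 32 ATF4 targets was split, with 14 above and 18 below 0 and a median of -0.015. The 2 of lowest p were lower in cKO mice. Gpt2, an alanine aminotransferase, measured 32.7 ± 1.08 and 25.9 ± 0.282 CPM, and Aldh18a1, an enzyme of proline synthesis, 81.2 ± 2.48 and 67.1 ± 1.45 CPM (adjusted p = 0.0672 and 0.0761 by edgeR; SD, n = 3 each). Of 20 other regulators of ER stress, 14 were above 0 (median 0.091). Bbc3, the pro-apoptotic protein PUMA and also a p53 target, measured 6.12 ± 0.479 and 8.54 ± 0.258 CPM (adjusted p = 0.0918 by edgeR). Creb3l3, an ATF6-like membrane factor, measured 0.513 ± 0.0921 and 1.17 ± 0.424 CPM (adjusted p = 0.141 by edgeR; SD, n = 3 each).

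Secreted cargo genes were set beside the chaperones because secreted matrix proteins pass through the ER. What the ER of this mixed sample mainly folds was not measured. Enamel matrix cargo (5 genes, with Amelx and Ambn the most abundant) summed to 60120, 61278 and 79619 CPM in controls 1 to 3 and 34349, 47415 and 22747 CPM in cKO 1 to 3. Fibrillar matrix cargo (15 genes, with Col1a1 the most abundant) went the other way, from 34614, 30447 and 22596 CPM to 47965, 39383 and 60301 CPM. Dentin and bone cargo (8 genes, mainly Dspp and Bglap) summed to 6593, 4395 and 3695 CPM in controls against 15101, 8382 and 15950 in cKO mice. For each of the 3 classes the groups did not overlap. All 28 cargo genes together summed to 101327, 96120 and 105910 CPM in controls against 97415, 95180 and 98998 in cKO mice, which overlapped. The 14 chaperones summed to 6044, 6359 and 6974 CPM in controls against 5664, 5130 and 5402 in cKO mice, which did not.

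**Figure D4:**
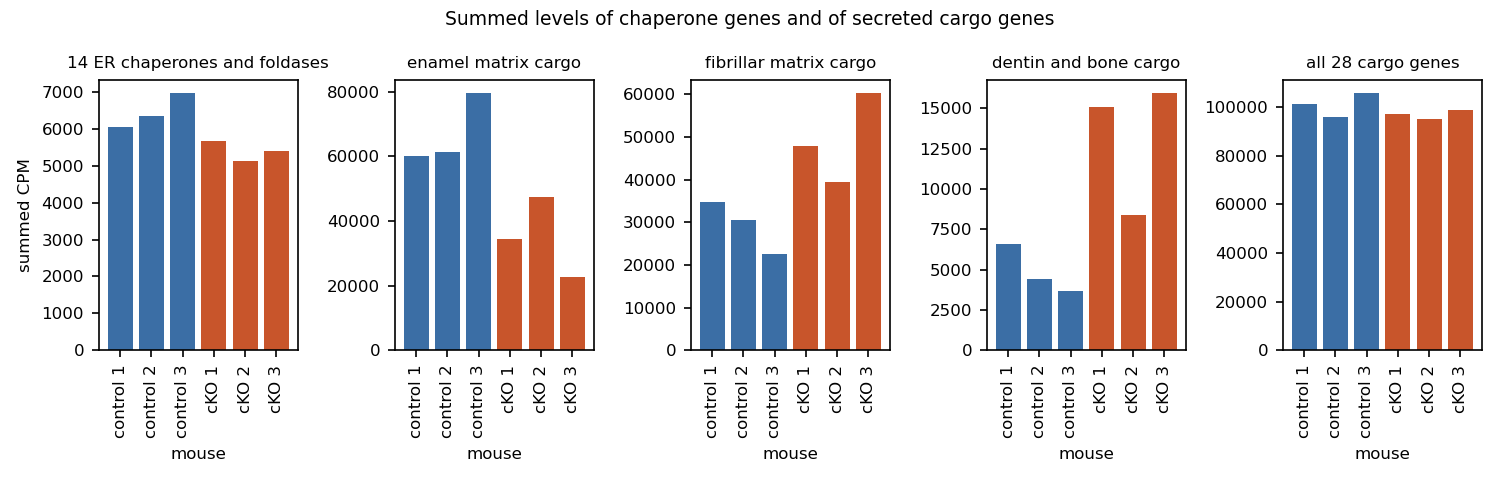
Bars give the summed CPM (y axis, from 0) of the chaperones and of the cargo classes in each mouse (x axis), controls in blue and cKO mice in orange. Chaperones and enamel cargo are lower in each cKO mouse than in each control, fibrillar and dentin cargo higher, and the sum of all 28 cargo genes lies between 95180 and 105910 CPM in all 6 mice.

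Control 3 had the highest sum of both chaperones and enamel cargo. Within the cKO group the orders differed, since enamel cargo was highest in cKO 2, where the chaperone sum was lowest. As sums, enamel cargo was lower in cKO mice, as were the chaperones, while dentin and fibrillar cargo were higher. In each class 1 gene went the other way, Amtn (log2 fold change 1.33), Spp1 (-0.16) and Col12a1 (-0.044) in that order. Averaged over genes, log2 CPM of enamel cargo overlapped. It stood at -0.33, 0.40 and -0.070 from the control mean in controls 1 to 3, and at -0.021, 0.015 and -0.66 in cKO 1 to 3. The averages of dentin and fibrillar cargo did not overlap. The makeup of the tissue may differ with genotype too. The part of cargo or tissue makeup in the lower chaperone levels was not tested. Among markers of other cells, the 7 macrophage markers were higher in every cKO mouse as a sum (575 to 721 against 368 to 494 CPM), as were the 6 endothelial markers (546 to 569 against 461 to 514 CPM). The 7 proliferation genes summed to 359 to 539 CPM in controls against 337 to 358 in cKO mice. Neutrophil and marrow markers (8 genes, with Camp, Elane and Mpo at 0 counts in at least 1 library) summed to 44.4 and 19.8 CPM in cKO 1 and 2 and to 1.34 to 2.80 CPM in the other mice. Odontoblast markers (5 genes) summed to 3125 to 5348 CPM in controls and 6710 to 12996 in cKO mice, and osteoblast markers (6 genes) to 2050 to 2975 and 3278 to 4966 CPM. Not every marker followed its sum. Of the odontoblast genes 4 were above 0 and 1 below, Smpd3 (log2 fold change -0.71). Of the osteoblast genes 4 were above 0, with Sp7 at 0.0030, and 2 below, Alpl at -0.038 and Ifitm5 at -0.46. Dental epithelium markers overlapped, at 2588 to 3371 and 2316 to 3595 CPM, as did plasma and B cell markers at 15.6 to 23.5 and 19.6 to 24.7 CPM (8 genes each). The part of these cells in the results was not tested.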

How the data were processed

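Reads were aligned with STAR 2.6.1d and processed in Partek on mm10, per the submitters' processing notes. The annotation, strand and settings of the counting step were not given in the sources used here. Estimated counts that the authors deposited for 25700 genes make up the main table, of which 45.6% to 48.0% per library were whole (tolerance 1e-09). Another table that the authors deposited gives a normalized signal, in which each value equals the estimated count plus 1, times 1 factor per library, and it was not used further.

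Counts were rounded and filtered with filterByExpr (minimum count 10, total 15), which left 19264 genes, scaled by TMM and tested with edgeR 4.0.16 (quasi-likelihood F-test, two-sided, no covariates, prior degrees of freedom 3.12) in R 4.3.3. All 31 members passed the filter. P-values were adjusted by Benjamini-Hochberg over all tested genes. The 11 alternatives were DESeq2 1.42.0, upper-quartile scaling, no filter, a filter of 1 CPM in 3 libraries, the mean log2 CPM of maturation ameloblast markers as a covariate, and each mouse left out in turn. The fit was tested on simulated data. Mice carry individual numbers in the labels, and replicates are numbered in accession order. Chi-square per degree of freedom between replicates was 46.0 to 73.3, so no library repeats another.

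Every member is described, and from each pathway list the 2 genes of lowest p are named. Members and lists were chosen with earlier results of these data known. Gene coordinates are the deposited ones, the end reduced by 1. Exonic lengths and overlaps come from GENCODE M21 (10 members share exonic bases with another gene). Promoter windows come from RefSeq (GRCm38.p6), and the last 20 bases of 26 of 28 member windows were found in a GENCODE transcript.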

Additional observations from a re-analysis of the deposited data

How the results depend on the processing

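Depth limits the precision of Derl3, Trib3 and Chac1 most, which had at most 155 counts in a library. Across all genes edgeR called 5 and DESeq2 called 1327. With the maturation ameloblast covariate, which partly follows genotype, the edgeR count was 0 (1198 genes at an unadjusted p under 0.05). Leaving out 1 mouse at a time gave 0 (without control 1, cKO 1 or cKO 2; 3103, 3278 and 2700 at an unadjusted p under 0.05) to 72 (without control 2). Among the 31 members edgeR called 0 under every alternative run, and DESeq2 called 6. The median of the sensor genes lay between -0.29 and -0.14 with 1 mouse left out, the latter without control 3. Single genes turned direction only where the value was near 0. With 1 mouse left out, Syvn1 ranged from -0.15 to 0.023 (0.018 without control 3, 0.023 without cKO 2), Sel1l from -0.093 to 0.0044 (without cKO 2), Atf6 from -0.044 to 0.048 (0.048 without control 2, 0.012 without cKO 2), Atf4 from -0.055 (without cKO 1; -0.049 without control 2) to 0.058, and Ddit3 from -0.018 (without control 2) to 0.21. The counts of non-overlapping members with 1 mouse left out were added after seeing the data. With a filter of 1 CPM, Trib3 was not tested. No paired analysis was possible because the labels give no number that mice of both groups share. The protocol speaks of 3 pairs of samples without saying which mice belong together, so the standard errors and p-values here are unpaired.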

Other observations

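Genes outside the 31 that hold an exact ERSE in a promoter window give a reading that does not rest on the choice of members. There were 28 such genes, of which 12 were tested, and 7 of these were below 0 and 5 above (median log2 fold change -0.068, edgeR, none called). The 9 members with the element were all below 0 (median -0.27, none called). Of the 12 others, 3 had all cKO mice below all controls and 2 had all above, against 12.0% and 11.1% of all tested genes. Among them Alg12, a mannosyltransferase of N-glycan synthesis in the ER, was at -0.14 (edgeR adjusted p = 0.562). Calr4, a calreticulin relative, was at 1.13 from a mean of 0.110 CPM in controls against 0.245 in cKO mice (edgeR adjusted p = 0.191). These genes were named after their values were seen.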
